A study of Mus musculus
Mus spretus with 18 samples.

Results

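The 7 genes described here encode proteins that bind microtubules. They were tau (Mapt), Map2, Map4 and Map1b, which bind along the microtubule lattice, and Clasp1, Clasp2 and Clip1 (CLIP-170), which bind at growing plus ends. They were taken by gene symbol from the exon-skipping (SE) tables and from the table of gene levels in TPM, a length-corrected share of each library. The 7 genes held 151 SE events among 125199 in all SE tables, with 34 events in Clasp1, 30 in Map4, 24 in Clasp2, 23 in Clip1, 19 in Mapt, 19 in Map2 and 2 in Map1b. An SE event is a target exon together with a given pair of flanking exons, so 1 exon can be seen in several events.

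Microtubules are hollow polymers of tubulin that carry transport, shape the cell and form the spindle. Lattice-binding proteins stabilise and space them, and tau and Map2 are the classical proteins of axons and of dendrites, respectively. Tau, Map2 and Map4 share a carboxy-terminal domain of imperfect repeats that contacts tubulin, and alternative exons change the number of repeats or the length of the projecting amino-terminal part. CLASP proteins rescue shrinking microtubules, and CLIP-170 tracks growing ends and links them to membranes and to dynein.

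All samples were F1 hybrids, designated C57BL/6J x SPRET/EiJ, of a female C57BL/6J and a male SPRET/EiJ parent, so that each nucleus held 1 allele of each strain under the same set of trans-acting factors. Cerebral cortex, heart, kidney, lung, spleen and liver were taken at the age of 8 weeks, with 2 libraries per organ, from 2 animals per the methods, and dissected tissue was used, so each value is an average over cell types. In such bulk samples, fewer cells of a type and less RNA per cell cannot be told apart. Embryonic stem cells (ESC) were 2 independent clones of the hybrid grown with 2i and LIF. Fibroblasts of the hybrid received 0.1 µM pladienolide B (PladB), an inhibitor of the splicing factor SF3B1, for 4 h, or the same volume of DMSO, with 2 libraries per treatment. The strain field of the liver libraries reads C57BL/7J and C57BL/8J, and they were used as livers of the same cross, which the methods say come from an earlier study.

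Junction reads counted at SE events ranged from 46558287 to 129496306 per tissue library and from 129067054 to 151755602 per fibroblast library. Reads given to an allele ranged from 23938550 to 94260625 and from 57919779 to 90272270, respectively. Each tissue expressed its own defining markers. Summed TPM of the heart markers Myh6, Tnnt2 and Actc1 was 47364 to 47730 in heart and 760 to 949 in lung, where all 3 were at 1 TPM or more, against 8.01 to 8.40 in cortex and 1.13 to 1.54 in kidney. Imprinted genes placed the maternal allele on C57BL/6J in the organs and fibroblasts where they could be read, but did not separate the alleles in ESC (35.4% C57BL/6J reads for maternally expressed genes), so the order of the alleles in ESC could not be checked.

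At the gene level, cortex was the highest tissue for Map1b, Map2, Mapt and Clasp2, heart for Clasp1 and Clip1, and ESC for Map4, whereas liver was the lowest tissue for 6 members and spleen for Mapt. All 8 TPM rows of the 7 members differed between tissues (adjusted p under 0.05 in limma and a range of at least 1 in log2), but so did 98.9% of all 21925 genes tested.

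**Figure D1:**
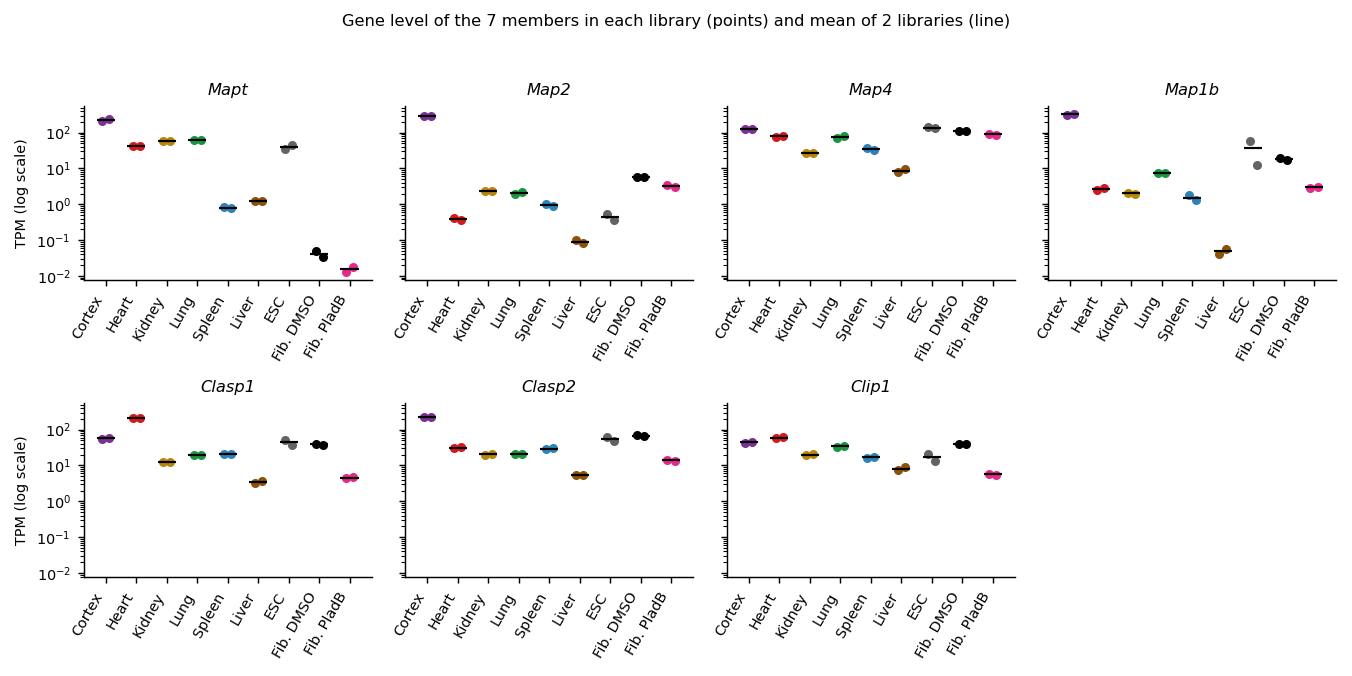
Gene level in TPM (log scale) of each member in 7 tissues and in fibroblasts treated with DMSO or pladienolide B, with points for the 2 libraries of a group and a line for their mean. Map2 and Map1b are far higher in cortex (293 and 326 TPM) than in every other group, Mapt lies between 35.1 and 62.2 TPM in heart, kidney, lung and ESC, and Map4, Clasp1, Clasp2 and Clip1 are above 3 TPM in every library.

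Mapt was at 213 and 235 TPM in the 2 cortex libraries. It was also at 61.1 and 62.2 TPM in lung, 60.1 and 58.7 in kidney, 43.0 and 42.4 in heart and 35.1 and 44.7 in ESC, and fell to 1.27 and 1.24 in liver and 0.820 and 0.781 in spleen. Cortex stood above every other tissue, lung and kidney did not differ beyond their spread (log2 difference 0.05 ± 0.12, SE), and neither did heart and ESC (0.11 ± 0.12). Here and below, the spread of a gene level is shared over all 14 tissue libraries, the ESC clones included. Summed TPM of the neuronal markers Snap25, Rbfox3, Slc17a7 and Gad1 was 0.398 to 0.938 in kidney, 6.31 to 9.05 in lung and 37.3 to 49.8 in heart, against 2104 to 2318 in cortex. The heart sum was nearly all Slc17a7 (49.8 and 37.0 TPM), while Snap25 was at 0 and 0.181 there, and 1 of the 4 markers reached 1 TPM in both libraries of heart and of lung. The part of these cells in the organ levels of Mapt was not tested.

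Map2 was at 295 and 291 TPM in cortex. Its next highest tissue was kidney, with 2.39 and 2.37 TPM, which was 6.89 ± 0.16 lower in log2. Kidney and lung (1.95 and 2.23 TPM) did not differ beyond their spread, nor did ESC (0.539 and 0.361) and heart (0.417 and 0.372), and liver was the lowest at 0.0978 and 0.0819. Map1b was at 315 and 338 TPM in cortex and at 0.0401 and 0.0583 in liver. In ESC the clones were far apart, at 59.8 and 12.9 TPM.

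Map4, the lattice-binding protein of most non-neuronal cells, was highest in ESC (145 and 131 TPM) and cortex (128 and 129), which did not differ beyond their spread. Heart (76.7 and 79.6) and lung (69.5 and 78.7) followed, also without a difference beyond their spread, and liver was the lowest at 7.77 and 9.45. A second identifier with the symbol Map4, ENSMUSG00000047011, was at 27.6 and 31.3 TPM in heart and at 1.22 and 1.18 in cortex, the next tissue, a log2 difference of 4.50 ± 0.21. Which Map4 exons that identifier covers was not analysed here.

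Among the plus-end genes, Clasp1 was at 206 and 205 TPM in heart, above cortex (55.8 and 58.5) by 1.85 ± 0.13 in log2. Its paralogue Clasp2 was instead at 220 and 222 TPM in cortex, above ESC (61.4 and 47.6) by 2.03 ± 0.12, with 30.4 and 31.9 in heart. Clip1 was at 59.8 and 61.0 TPM in heart and 43.6 and 46.4 in cortex. These libraries did not overlap, but the log2 difference of 0.42 ± 0.19 was not called (adjusted p = 0.0676 in limma). The spread in that test is shared over all tissue libraries, and the ESC clones were apart, at 20.8 and 13.4 TPM.

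The genes with the most similar levels across the means of the 7 tissues were described by Pearson's r of log2(TPM + 0.1) among 19138 genes, with no test. Brsk1, a kinase of neuronal polarity, was nearest to Map1b (r = 0.996), and Mark1, a kinase that phosphorylates microtubule-associated proteins, was nearest to Clasp2 (r = 0.993). Doc2b (r = 0.993) was among the 3 genes nearest to Map2, Cdc42bpb (r = 0.970) among those of Mapt, Zfp532 (r = 0.989) was nearest to Map4, E2f6 (r = 0.994) to Clasp1 and Cacna1c (r = 0.987) to Clip1. All points of such a correlation share the same 14 libraries.

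Splicing was compared as the percent spliced in (PSI, given here from 0 to 1), the share of transcripts that hold the target exon, for events with 20 or more junction reads in each library of a tissue. Of 75 member events that could be tested between tissues, 37 were called (adjusted p under 0.05 in the quasi-binomial test and a PSI range of at least 0.1), against a background of 7.63% of 49363 events. The 37 events fell on 31 of 62 target exons. By gene, 9 of 11 events were called in Mapt, 9 of 16 in Clip1, 7 of 15 in Clasp1, 5 of 10 in Clasp2, 6 of 19 in Map4 and 1 of 4 in Map2, and no event of Map1b could be tested. The median range of PSI over tissues was 0.251 for the member events and 0.0146 for all events. The range was 0.5 or more in 21 member events (28.0%), against 2.87% of all events.

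Cortex held the highest PSI in 16 of the 37 called events and the lowest in 13, and heart the highest in 7 and the lowest in 8. Over all 21 tissue pairs, with 14 to 52 member events tested per pair, 218 differences were called in member events. The background was 5.91% of 373679 tests. Events of the same exon share reads, so the 218 differences are not independent. Cortex and heart differed in 30 of 52 member events (background for this pair, 9.56%), 16 of them higher in cortex. Cortex differed from ESC in 25 of 52 (background 8.60%) and from lung in 20 of 41 (background 9.27%). No member event was called between kidney and spleen (26 tested, 1 at an unadjusted p under 0.05) or kidney and liver (18 tested, 1). The same quasi-binomial test called none between lung and liver (16 tested, 1) or spleen and liver (14 tested, 0). Backgrounds were 2.91%, 1.28%, 3.06% and 3.77% in that order, so no call in so few tests is near the background. The libraries of a tissue were close in most called events, with a median difference between both libraries of 0.0116 in cortex and 0.0113 in heart. The ESC clones differed by 0.1 or more in 9 of 31 called events, the heart libraries in 3 of 35 and the lung libraries in 2 of 27.

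Tau changed along most of its length. In the adult brain of rodents, exons 2 and 3 encode amino-terminal inserts, exons 4A, 6 and 8 are skipped in most neurons of the central nervous system, and exon 10 encodes the second of the microtubule-binding repeats. Exon 4A is the exon of big tau, a form known from peripheral neurons.

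**Figure D2:**
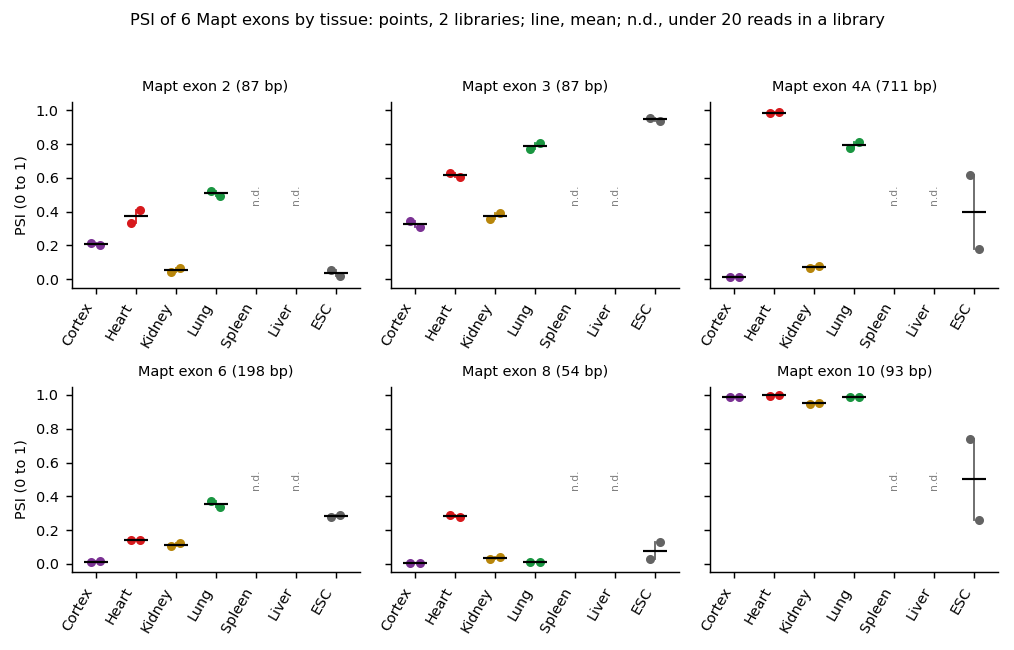
PSI (0 to 1) of 6 Mapt exons in 7 tissues, with a point for each of the 2 libraries and a line for their mean. Exon 4A is near 0 in cortex and near 1 in heart, exons 2 and 3 differ in order between tissues, and exon 10 is above 0.94 in each organ with enough reads but split between the ESC clones.

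Exon 4A had the largest range of all Mapt exons. With its 711-bp form (chr11:104298546-104299256), PSI was 0.0140 and 0.0148 in cortex, 0.0660 and 0.0784 in kidney, 0.774 and 0.812 in lung, and 0.985 and 0.987 in heart. The groups of cortex, kidney, lung and heart libraries did not overlap, and 7 of 10 tissue pairs were called (adjusted p over all tissues 2.79e-05, quasi-binomial test). The ESC clones lay far apart, at 0.617 and 0.180. Cortex and kidney, with means of 0.0144 and 0.0722, were less than the required 0.1 apart and could not be called against each other. Heart and lung (means 0.986 and 0.793) were not called either, in a test whose spread is shared with the ESC clones. A form of the same exon that begins 48 bases upstream (759 bp) gave cortex values of 0.0245 and 0.0228 and heart values of 0.989 in both libraries, and shares its downstream junction reads with the shorter form. Lung held heart marker RNA as given above, and its part in the lung values was not tested.

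Exon 2 (87 bp, chr11:104287123-104287209) was included at 0.212 and 0.20 in cortex, 0.332 and 0.412 in heart, 0.523 and 0.495 in lung, 0.0449 and 0.0638 in kidney and 0.0526 and 0.0183 in ESC. It was thus most included in lung and nearly absent from kidney and ESC, with 8 of 10 pairs called (adjusted p = 1.86e-05, quasi-binomial test). Exon 3 (87 bp, chr11:104289908-104289994), measured among transcripts with exon 2, was at 0.345 and 0.306 in cortex, 0.354 and 0.393 in kidney, 0.630 and 0.605 in heart, 0.771 and 0.805 in lung and 0.954 and 0.938 in ESC. Thus the few ESC transcripts with exon 2 nearly all held exon 3, whereas in cortex and kidney most did not. The means of cortex and kidney were under 0.1 apart, so that pair could not be called. The junction from exon 2 to exon 4 counts as inclusion of exon 2 and as skipping of exon 3, so these events share reads. Transcripts with both exons give the exon 2 event only their upstream junction.

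Exon 6 (198 bp, chr11:104305212-104305409) was nearly absent from cortex, at 0.00962 and 0.0150. It reached 0.372 and 0.338 in lung, 0.279 and 0.289 in ESC, 0.141 and 0.139 in heart and 0.106 and 0.124 in kidney (adjusted p = 5.63e-07, quasi-binomial test). Exon 8 (54 bp, chr11:104307881-104307934) was at 0.287 and 0.278 in heart and at 0.129 or less in all other libraries, so heart alone stood out among the tissues measured. The exon 4 event (66 bp) was measured between exon 2 and the exon after exon 4A. It was at 0.993 and 0.995 in cortex and at 0.775 and 0.850 in heart, and its lung libraries differed, at 0.550 and 0.836. Transcripts with exon 4A do not give this event its downstream junction, so these values do not measure skipping of exon 4 alone. The part of exon 4A in the heart and lung values was not tested.

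Exon 10 (93 bp, chr11:104318157-104318249), whose inclusion gives tau with 4 repeats in place of 3, was high in every organ measured. PSI was 0.987 and 0.989 in cortex, 0.996 and 1 in heart, 0.990 and 0.988 in lung and 0.944 and 0.955 in kidney. Only the ESC clones were lower, at 0.740 and 0.263. The range of 0.496 over all tissues was called (adjusted p = 0.00691, quasi-binomial test), but without the ESC clones it was 0.0481 and the call was lost.

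In Map2, the repeat domain separated cortex from other tissues. Its 93-bp exon near the 3' end (chr1:66431527-66431619, 95.9% along the gene) has the length of 1 repeat, as has Mapt exon 10. PSI was 0.0848 and 0.0808 in cortex, against 0.991 and 0.980 in kidney, 0.959 and 1 in spleen and 1 and 0.913 in ESC (adjusted p = 2.09e-06, quasi-binomial test). No cortex library overlapped any other library, and no pair among the 3 other tissues was called. The fewest reads behind a value of this event were 22. The other 3 Map2 exons tested had enough reads in only 2 tissues each. These were cortex and kidney for the 63-bp and 65-bp exons, and cortex and lung for a 285-bp exon. Their ranges were 0.0037 to 0.036 and none was called. The 285-bp and 65-bp exons were at 0.907 or more in every library measured.

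**Figure D3:**
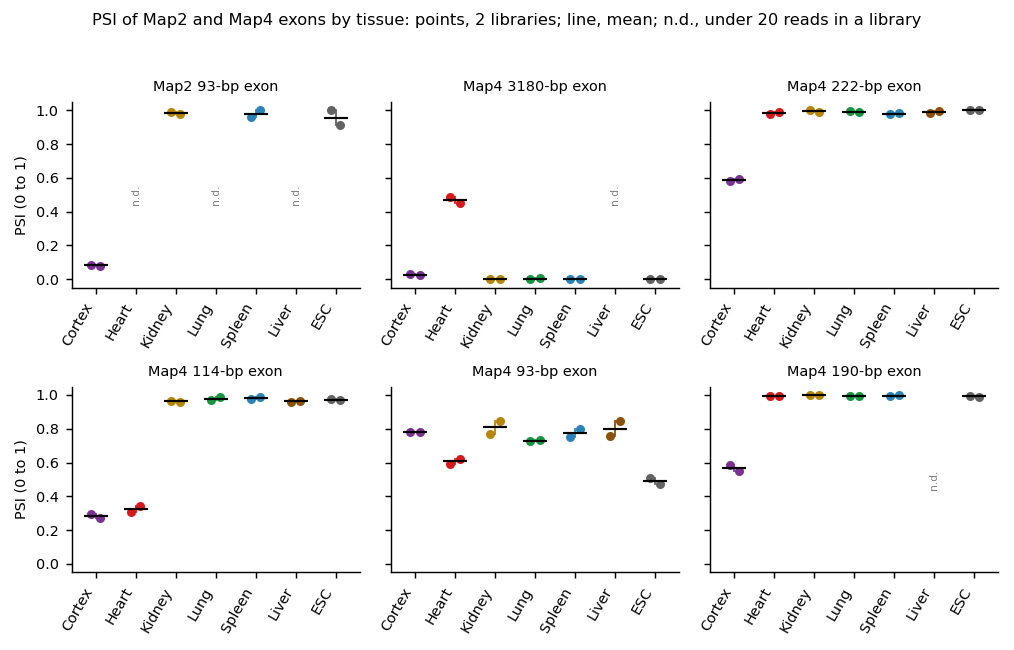
PSI (0 to 1) of the Map2 93-bp exon and 5 Map4 events in 7 tissues, with a point for each of the 2 libraries and a line for their mean. The Map2 exon is near 0.08 in cortex and above 0.9 elsewhere, the Map4 3180-bp exon is near 0.47 in heart and at 0.03 or less elsewhere, and the Map4 114-bp exon is low in both cortex and heart.

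Map4 differed both in its projecting part and in its 3' portion. The 3180-bp exon (chr9:110037288-110040467), of the size known for the muscle form of MAP4, was included at 0.485 and 0.450 in heart and at 0.0279 and 0.0257 in cortex. Kidney, lung, spleen and ESC libraries were all at 0.00469 or less (adjusted p over all tissues 5.59e-09, quasi-binomial test), and all 5 pairs with heart were called. The 114-bp exon (chr9:110071026-110071139), measured next to the 93-bp exon that follows it, was at 0.293 and 0.269 in cortex and 0.308 and 0.343 in heart. All libraries of the other 5 tissues lay between 0.96 and 0.987, and all 10 pairs of cortex or heart with them were called (adjusted p over all tissues 5.70e-10), whereas cortex and heart did not pass the test against each other. The 114-bp exon was also measured with the exon beyond the 93-bp exon as its downstream flank. There it was lowest in heart (0.230 and 0.286) and cortex (0.377 and 0.346), with 0.550 and 0.527 in ESC. This event shares its upstream junction reads with the first, so it is not a separate measurement.

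The 93-bp exon (chr9:110072613-110072705), measured with the exon before the 114-bp exon as its upstream flank, gave another order. Transcripts with both exons also give this event their downstream junction, so it is not inclusion without the 114-bp exon. It was at 0.780 and 0.779 in cortex and 0.593 and 0.621 in heart, and lowest in ESC at 0.506 and 0.471, with 11 of 21 pairs called. Where the 114-bp exon was present, the 93-bp exon followed it in nearly all transcripts, at 0.975 or more in every library. The 222-bp exon (chr9:110064228-110064449) was at 0.584 and 0.592 in cortex and at 0.975 or more in every other library, and the 190-bp exon (chr9:110081421-110081610) was at 0.583 and 0.548 in cortex and at 0.991 or more elsewhere when the next exon began at position 110081841. When the next exon began at 110081735, the 190-bp exon was at 0.997 and 0.992 in cortex and was not called (range 0.0053), so its low value in cortex held for 1 of its 2 flanks. The other 13 Map4 events were not called, and several of them share junction reads with the exons above.

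The plus-end genes were marked by micro-exons, here exons of 30 bp or less. Such exons are a class of short exons known to be included mainly in neurons. In Clasp1, a 27-bp exon (chr1:118523321-118523347) was included at 0.882 and 0.894 in cortex and at 0.0502 or less in every library of heart, kidney and ESC (adjusted p = 1.44e-06, quasi-binomial test). A 24-bp exon (chr1:118541675-118541698) was high in both cortex (0.858 and 0.887) and heart (0.836 and 0.833), at 0.101 or less in kidney, lung and spleen, and at 0.0752 and 0.356 in the ESC clones. All 8 pairs called for it set cortex or heart against another tissue.

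**Figure D4:**
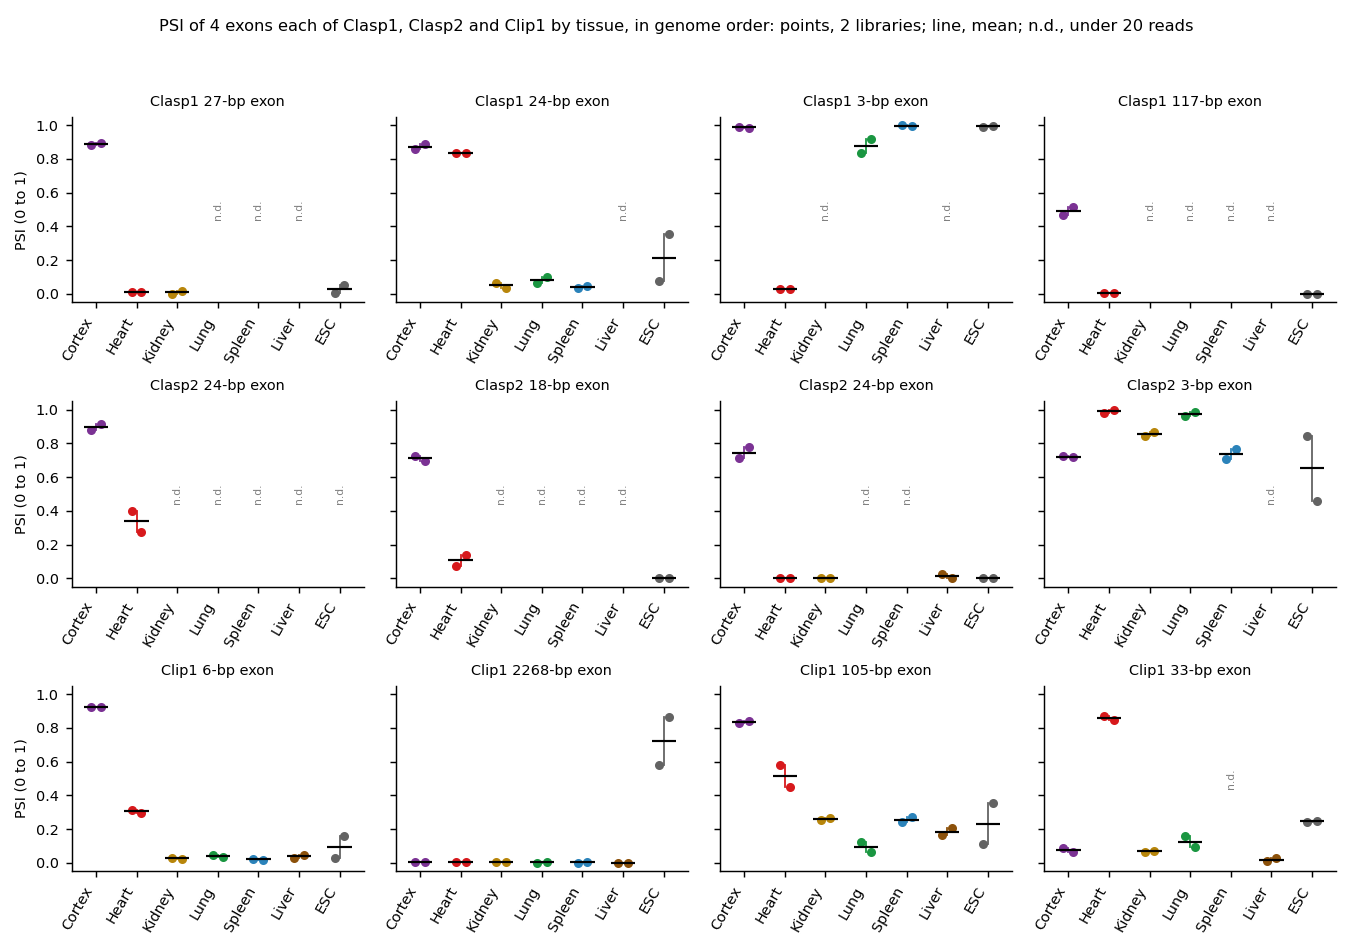
PSI (0 to 1) of 12 exons of Clasp1, Clasp2 and Clip1 in 7 tissues, with a point for each of the 2 libraries and a line for their mean. Most short exons are high in cortex alone, the Clasp1 24-bp exon is high in cortex and heart, the Clasp1 3-bp exon is low in heart alone, and the Clip1 33-bp exon is high in heart.

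The smallest exon of Clasp1 was a target of 3 bp (chr1:118547656-118547658), 1 codon in length. It was nearly always included in cortex (0.991 and 0.985), spleen (1 and 0.994) and ESC (0.991 and 0.996). Lung was at 0.834 and 0.916. Heart, by contrast, was at 0.0295 and 0.0266, and this range of 0.969 was among the largest of all member events (adjusted p = 4.60e-09, quasi-binomial test). Longer Clasp1 exons also separated cortex from heart. The 117-bp exon (chr1:118565143-118565259) was at 0.470 and 0.515 in cortex and at 0.00581 or less in heart and ESC, and a 108-bp exon (chr1:118531978-118532085) was at 0.505 and 0.472 in cortex and at 0.0299 or less in heart, lung and spleen. With the 63-bp exon that follows it as its downstream flank, the 108-bp exon was at 0.909 and 0.946 in cortex and 0.253 and 0.371 in heart. Both events of the 108-bp exon share their upstream junction reads.

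Clasp2 held a similar group of short exons. The 24-bp exon at chr9:113878750-113878773 was at 0.713 and 0.777 in cortex and at 0.0286 or less in every library of heart, kidney, liver and ESC (adjusted p = 1.41e-07, quasi-binomial test). The 18-bp exon (chr9:113860120-113860137) was at 0.728 and 0.698 in cortex, 0.0740 and 0.140 in heart and 0.00148 and 0 in ESC, and all 3 pairs were called. Another 24-bp exon just upstream of it (chr9:113858581-113858604) was at 0.879 and 0.915 in cortex and 0.400 and 0.277 in heart when joined to the 18-bp exon, a call that was lost without the second heart library (range 0.497). With the exon beyond the 18-bp exon as its downstream flank, this 24-bp exon was at 0.793 and 0.781 in cortex and 0.0125 and 0.0159 in spleen. Both events share their upstream junction reads.

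A 3-bp exon of Clasp2 (chr9:113887045-113887047) differed from that of Clasp1 in its tissue order. It was at 0.979 and 1 in heart, 0.961 and 0.985 in lung, 0.725 and 0.717 in cortex and 0.707 and 0.767 in spleen, so heart was high and not low. It was not called over all tissues (adjusted p = 0.103, quasi-binomial test), while the ESC clones were at 0.845 and 0.459. It was called when either clone or both were left out, with a range of 0.268 without both.

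Clip1 had its own pairs of exons. The 6-bp exon (chr5:123581592-123581597) was at 0.921 and 0.926 in cortex and 0.314 and 0.298 in heart, at 0.0466 or less in kidney, lung, spleen and liver, and at 0.0313 and 0.160 in the ESC clones. Cortex, heart and the 4 other organs thus did not overlap, and 11 of 21 pairs were called (adjusted p = 1.53e-08, quasi-binomial test).

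A 33-bp exon of Clip1 (chr5:123638956-123638988) and the 105-bp exon next to it (chr5:123635174-123635278) were each measured with the other as a flank and between the outer flanks of both. These 4 events share junction reads and were all called. Transcripts with both exons also give reads to the events between the outer flanks, so those are not inclusion without the other exon. Between the outer flanks, the 33-bp exon was high in heart, at 0.870 and 0.846, with 0.244 and 0.249 in ESC and 0.157 or less in cortex, kidney, lung and liver. With the 105-bp exon as a flank, it was at 0.982 and 0.994 in heart, 0.972 and 0.845 in ESC and 0.627 and 0.752 in lung, and at 0.153 or less in cortex, kidney and spleen. Heart was thus highest in both events, and ESC and lung were high only in the second.

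The 105-bp exon between the outer flanks was highest in cortex, at 0.830 and 0.841, with 0.583 and 0.451 in heart, 0.110 and 0.352 in the ESC clones and 0.273 or less in kidney, lung, spleen and liver. With the 33-bp exon as a flank, it was at 0.972 and 0.982 in cortex, 0.741 and 0.750 in kidney, 0.485 and 0.531 in lung and 0.551 and 0.838 in ESC, and lowest in heart at 0.301 and 0.266. Cortex was highest in both events, but heart was above kidney and lung in the first and below them in the second.

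A 117-bp exon of Clip1 (chr5:123627294-123627410) was mostly skipped in cortex when its shorter flanking exon was used. It was at 0.110 and 0.111 in cortex and at 0.978 or more in every library of the other 6 tissues (adjusted p = 1.30e-09, quasi-binomial test). With its other, longer flanking exon the same exon was at 0.710 and 0.774 in cortex. The 2268-bp exon (chr5:123613068-123615335) was at 0.0075 or less in all organ libraries and at 0.578 and 0.863 in the ESC clones. Its call rested on ESC, and the range among the organs alone was 0.0049.

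The called exons shared features of length. Of 10 member micro-exon events, 9 were called, against 38.7% of all 934 micro-exon events tested. Cortex was above the mean of the other tissues in all 9, and in 294 of the 361 called among all events. The 9 include the Clasp1 3-bp exon, where mean PSI was 0.997 in spleen, 0.988 in cortex and 0.028 in heart. Among member events of 31 to 300 bp, 24 of 59 were called (6.99% of all such events), and of those over 300 bp 4 of 6 (8.19% of all such events). Of 54 member events whose exon length was a multiple of 3, which keeps the reading frame if the exon is coding, 35 were called. Of 21 with another length, 2 were called, the Map4 190-bp exon and the alternative start of Mapt exon 6 (97 bp). Among all events tested, 11.1% and 5.14% were called in these classes. A multiple of 3 was the length of 72.0% of member events and of 41.5% of all events.

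Reads that cover strain variants gave PSI for each allele of the same nucleus, which asks whether the exon differs in cis. A call needed an adjusted p under 0.05 in the quasi-binomial test, a difference of at least 0.1 and a PSI from the pooled reads of both alleles within 0.1 of the PSI from all reads. In cortex 3 of 74 member events were called (background 1.91%), in heart 1 of 50 (1.75%), and in DMSO fibroblasts 1 of 47 (2.50%). None was called in kidney (37 tested, 9 at an unadjusted p under 0.05, background 1.73%), lung (33 tested, 7, 1.76%), spleen (20 tested, 0, 1.60%), liver (13 tested, 0, 1.11%), ESC (59 tested, 0, 0.0223%) or PladB fibroblasts (32 tested, 2, 1.67%). The median absolute allelic difference was 0.0097 in cortex for member events and 0.0116 for all events. With the library as a block, which pairs both alleles of 1 library, the counts were 3 in heart (background 3.51%) and 1 in lung (background 3.52%). The member counts of the other groups stayed the same. The ESC background depended on the block, with 7 of 31421 events called without it and 353 (1.12%) with it. The low ESC background is thus no measure of how rare allelic differences were there.

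**Figure D5:**
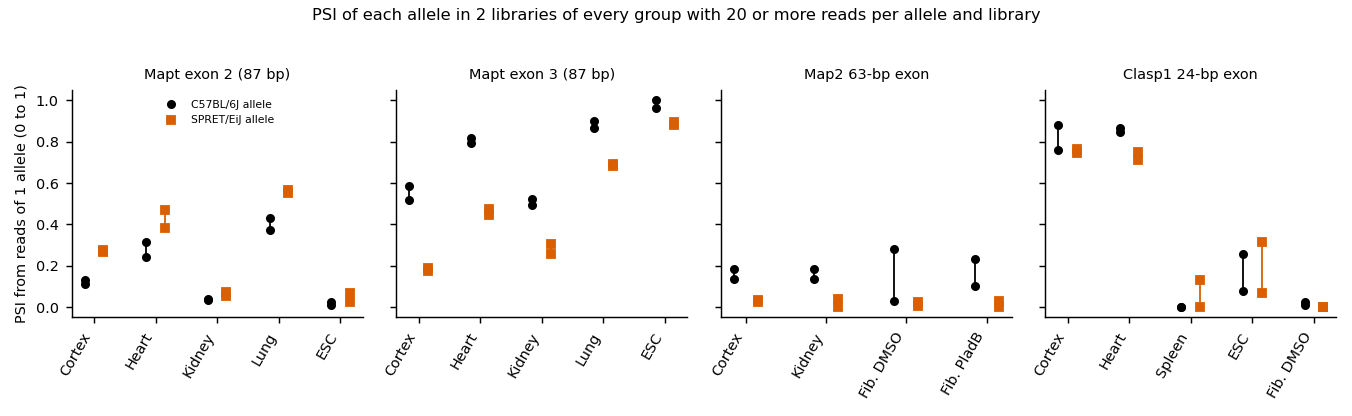
PSI (0 to 1) from reads of the C57BL/6J allele (circles) and the SPRET/EiJ allele (squares) for 4 exons, with a point for each of 2 libraries in every group with 20 or more reads per allele and library. For Mapt exon 3 the C57BL/6J allele is above the SPRET/EiJ allele in each group, and for Mapt exon 2 it is below.

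The amino-terminal inserts of tau differed between alleles. In cortex, exon 3 was at 0.587 and 0.519 on the C57BL/6J allele and at 0.190 and 0.177 on the SPRET/EiJ allele, a difference of 0.370 (adjusted p = 0.000598, quasi-binomial test, 385 to 523 reads per value). Exon 2 went the other way, at 0.130 and 0.113 on C57BL/6J and 0.277 and 0.269 on SPRET/EiJ (adjusted p = 0.000888). In both exons the alleles did not overlap. Since the junction from exon 2 to exon 4 is read in both events, as skipping of exon 3 and inclusion of exon 2, these differences are not independent measurements.

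The same order was seen in other tissues. In heart, exon 3 was at 0.820 and 0.794 on C57BL/6J and 0.444 and 0.476 on SPRET/EiJ (adjusted p = 0.0206, quasi-binomial test), and exon 2 was at 0.240 and 0.316 against 0.383 and 0.472, which was called only with the library as a block (adjusted p = 0.225 without it and 0.0141 with it). In lung, exon 3 was at 0.868 and 0.903 against 0.691 and 0.684, also called only with the block (0.104 and 0.0174). In kidney, exon 3 was at 0.524 and 0.493 against 0.256 and 0.305 from 32 to 62 reads per value and was not called in either fit. Exon 3 was higher and exon 2 lower on C57BL/6J in both libraries of all 5 groups with enough reads, ESC included, where the allele order was not checked. Whether the allelic difference itself differs between tissues was not tested.

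Map2 carried an allelic difference in a 63-bp exon (chr1:66193119-66193181, 6.7% along the gene) whose PSI range between cortex and kidney was 0.0037. In cortex it was at 0.136 and 0.184 on C57BL/6J and 0.0343 and 0.0235 on SPRET/EiJ, a difference of 0.131 (adjusted p = 0.00816, quasi-binomial test). In DMSO fibroblasts it was at 0.0311 and 0.280 against 0.00540 and 0.0239 (adjusted p = 0.0144). The C57BL/6J libraries there differed widely, rested on 23 and 62 reads, and the allelic difference was 0.256 in the second pair alone and 0.0257 in the first. PladB fibroblasts were at 0.231 and 0.100 against 0.0298 and 0, and kidney at 0.184 and 0.135 against 0.0404 and 0, neither of them called. The C57BL/6J allele was thus higher in both libraries of all 4 groups measured.

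The Clasp1 24-bp exon in heart was at 0.868 and 0.849 on C57BL/6J and 0.749 and 0.713 on SPRET/EiJ, called only with the library as a block (adjusted p = 0.122 without it and 0.0112 with it, quasi-binomial test). In cortex its alleles overlapped, at 0.760 and 0.882 against 0.745 and 0.764. Large allelic differences in heart of the Map4 3180-bp exon (0.221 and 0.197 on C57BL/6J against 0.477 and 0.501) and of Mapt exon 6 (0.152 and 0.233 against 0.485 and 0.452) were not counted. The PSI from the pooled reads of both alleles was 0.146 and 0.221 away from that of all reads, beyond the limit set.

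In fibroblasts, few member exons changed in inclusion after the splicing inhibitor. Of 72 member events tested, 2 differed by 0.1 or more and 1 was called, against 8.29% of 56291 events (8.12% lower and 0.165% higher after PladB). It was the 3-bp exon of Clasp1, which was at 0.998 and 1 in DMSO (547 and 459 reads) and 0.747 and 0.893 in PladB (60 and 66 reads), a difference of -0.179 (adjusted p = 0.000363, quasi-binomial test). The 83-bp exon of Map1b (chr13:99444214-99444296) was at 1 in both DMSO libraries and at 0.934 and 0.780 in PladB from 23 and 26 reads, and missed the threshold (adjusted p = 0.0517). Without the first PladB library it was called, with a difference of -0.22.

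Other members differed less. The largest differences were -0.0601 for the 3-bp exon of Clasp2, -0.0570 for a 198-bp exon of Clip1 and -0.0312 for the 93-bp exon of Map2. For Map4 it was -0.0054, for the 114-bp exon with its downstream flank beyond the 93-bp exon. All were under the 0.1 required. The median over the 72 events was -0.0008, against -0.0052 over all events. No Mapt event could be tested, since Mapt was at 0.0506 TPM or less in fibroblasts. The retained-intron table held 2243 events and none of a member. The interaction of allele and treatment gave no call in 20 member events (1 at an unadjusted p under 0.05, quasi-binomial test), and none in 13585 events in all (556 at an unadjusted p under 0.05, 4.09%).

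Gene levels after PladB were called different in most member rows, as in most genes tested. Of 7 member rows tested, 6 were called (adjusted p under 0.05 in limma and at least 0.5 in log2), against 74.3% of 13577 genes (65.5% lower and 8.76% higher after PladB). Of the members, 5 were called lower and 1 higher. Clasp1 went from 40.6 and 37.7 to 4.52 and 4.72 TPM, a log2 difference of -3.05 ± 0.06 (SE). Clip1 went from 39.9 and 38.7 to 5.77 and 5.52 (-2.78 ± 0.05), Map1b from 19 and 17.7 to 2.91 and 3.09 (-2.57 ± 0.07), and Clasp2 from 70.8 and 66.6 to 14.2 and 13.7 (-2.29 ± 0.06). No library of one treatment overlapped the other for these 4 genes.

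Map4 and Map2 had the smallest differences. Map4 was at 114 and 108 TPM in DMSO and 91.0 and 87.8 in PladB, which did not reach the size required (-0.31 ± 0.06), and Map2 went from 5.93 and 5.75 to 3.50 and 3.04 (-0.82 ± 0.09). TPM are shares of each library, and the median log2 difference of all genes tested was -1.15. When each library was centred on its median, every difference moved by 1.45 and all 7 member rows were called. Map2 (0.63) and Map4 (1.14) were then called higher after PladB, while Clasp1, Clip1, Map1b and Clasp2 kept their sign. With that centring 30.1% of all genes were called lower and 44.1% higher. The second Map4 identifier was at 0.196 and 0.324 TPM in DMSO and 1.87 and 1.99 in PladB (2.52 ± 0.20). Its DMSO values were below 1 TPM.

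Other genes of the microtubule system gave a reference from lists of related genes. Among 28 further microtubule-binding and end-binding genes, 16 of 97 SE events were called between tissues, in 12 genes, against 7.63% of all events, with a median range of 0.0240 (0.0146 for all events). Among 8 destabilising and severing genes 2 of 30 events were called and among 8 kinases that act on these proteins 4 of 44, near the share of all events, and the 12 tubulin genes held 2 events that could be tested. The largest ranges were those of a 90-bp exon of Tacc2, at 0.0021 and 0.0039 in cortex and 0.987 and 0.990 in heart, a 99-bp exon of Map7d2, at 0.937 and 0.941 in cortex and 0 and 0.0149 in ESC, and a 197-bp exon of Map6, at 0.959 and 0.965 in cortex and 0.0678 and 0.130 in heart. A 105-bp exon of Clip2, the paralogue of Clip1, was at 0.941 and 0.946 in cortex and 0.112 in both heart libraries, and a 24-bp exon of Nav1 at 0.914 and 0.917 in cortex and 0.316 and 0.346 in heart. Mark3, a kinase of tau, held a 45-bp exon at 0.974 and 0.963 in cortex and 0.222 and 0.245 in liver.

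After PladB, levels of 23 of 24 tested rows of microtubule-binding genes were called lower, as were all 8 kinases, 3 of 5 destabilising genes and 7 of 10 tubulin genes, and none was called higher, against 65.5% of all genes called lower. The median log2 difference was -2.22, -2.29, -2.50 and -0.83 in these lists, against -2.29 for the members and -1.15 for all genes. The shift of 1.45 under median centring is larger than the tubulin median and turns its sign. SE events were called lower in 10 of 113 tests of microtubule-binding genes, 8 of 46 of kinases, 5 of 34 of destabilising genes and 0 of 13 of tubulin genes, against 8.12% of all events.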

How the data were processed

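RNA-seq libraries of 7 tissues and of fibroblasts with 2 treatments, 18 in all and 2 per group, were analysed from deposited tables. Per the study's methods, the authors aligned strand-specific reads with HISAT2 (2.0.1) to mm10 and a SPRET/EiJ genome, assigned reads to an allele, and counted junction reads with rMATS. The deposited SE and retained-intron tables hold read counts of 2 libraries as comma-separated lists, which are not a plain count column, and the deposited TPM table holds the authors' per-gene TPM. The deposited effective lengths (score values) of both forms were used as given and differ between the tissue and fibroblast tables, so PSI was not tested between these. The authors' own p-values, FDR and PSI differences in those tables were not used.

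PSI was I/LI divided by the sum of I/LI and S/LS, with I and S the inclusion and skipping reads and LI and LS the effective lengths. Events needed 20 reads in each library of a group. A quasi-binomial logistic model was fitted per event (Python 3.11.15, numpy 2.4.6), with the dispersion moderated over all events by limma (3.58.1, R 4.3.3) with a trend on depth and a floor at 1, and p-values were adjusted by Benjamini-Hochberg over all events. TPM were tested with limma on log2(TPM + 0.1) for genes at 1 TPM or more in at least 2 libraries, so a log2 difference understates the change of low genes. The fits of splicing and of gene levels were tested on simulated data.

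The prior of the dispersion was changed after first calls had been seen: events now need at least 5 fitted reads of both forms in each library, where the first rule asked for a pooled inclusion share of 0.05 to 0.95. The 7 members, the gene lists and the tests were chosen with earlier results of these data known. Named exons were, per member, the 4 with the largest range over tissues, those called between alleles, and the largest treatment difference. Other exons were named after their values were seen. Both alleles of 1 library pair by design, with correlations of their deviations from 0.028 to 0.632. Per the methods, the organs came from 2 animals, liver included, and ESC were 2 clones, while which library is from which animal was not stated. For the fibroblasts the source of the 2 libraries was not stated, so p-values there measure the spread between these samples, which may be technical. Coordinates are 1-based mm10 as deposited, and gene bounds are from RefSeq GRCm38.p6.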

Additional observations from a re-analysis of the deposited data

How the results depend on the processing

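The 37 events called between tissues became 38 with a minimum of 10 or of 50 reads, 37 without a depth trend in the prior, 39 with the first prior rule and 37 without both ESC clones, the last 2 chosen after seeing the data. Leaving out each library in turn gave 35 to 39 events, 196 to 248 tissue-pair differences (218 with all libraries), 0 in the interaction of allele and treatment, 1 to 2 exons by treatment, 8 gene levels by tissue and 5 to 6 by treatment. The treatment count was 2 without the first PladB library, which adds the Map1b exon. The allelic call in DMSO fibroblasts, 1 exon, became 0 with a minimum of 50 reads, because the Map2 exon was then not tested. Under median centring the differences after PladB reversed for Map2 (0.63 in log2) and Map4 (1.14), the only named values that did. The organs came from 2 animals, but no label ties a number to an animal. Deviations of same-numbered organ libraries correlated at 0.034 to 0.173 for TPM, above 0 in 15 of 15 organ pairs and over 0.1 in 4, and at -0.046 to 0.071 for PSI (0.0008 between treatments), so the numbers were not taken as pairs. A fit with the replicate number as a block called 38 events between tissues (adding a 48-bp Clasp1 exon, adjusted p = 0.0515 without and 0.0440 with the block), 215 tissue-pair differences and 1 by treatment, and with the library as a block 4 exons between alleles in the tissues in place of 3. The planned negative-binomial alternative for the exon tests was not run, because the cells hold lists. Retained introns gave no value, and leaving out 1 library between alleles leaves values without a test. The fewest member events reached the read minimum between alleles in liver (13) and spleen (20), although liver held the most reads given to an allele among the tissues.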
